A study of Mus musculus with 2 samples.

Results

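The small heat shock proteins of muscle and the co-chaperone Bag3 were described here in myoblasts grown from mouse skeletal muscle, cells that divide in culture and can fuse into fibres. The 8 genes, of 18193 with a named probe set, were Hspb1, Hspb2, Hspb3, Hspb6, Hspb7, Hspb8, Cryab and Bag3, and all 15 of their probe sets were taken through the annotation of the array platform. They were chosen by their KO and WT intensities on these same arrays, as a family of which several were lower, so every ratio given for them is a description. Total RNA came from 1 culture of Foxj3 KO skeletal myoblasts and 1 culture of Foxj3 WT skeletal myoblasts, and each was hybridised to 1 Affymetrix array. Both cultures were at passage 3, grew in medium with 20% serum and were harvested at 80% confluence. The KO cells are labelled as knocked out for Foxj3, a forkhead transcription factor gene. The labels used here name no strain, age, sex, deleted exon or driver of the deletion. The comparison addresses which transcripts change in myoblasts that lack Foxj3. There were no replicates, no test was made, and a fold describes these 2 arrays only.

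Small heat shock proteins share an alpha-crystallin domain, assemble into oligomers and hold unfolding proteins in a soluble state without using ATP. They pass these proteins on to Hsp70 for refolding, or, through HSPB8 and BAG3, to autophagy. In muscle they sit at Z-discs and along desmin and actin filaments, which are strained at each contraction. In humans, mutations in CRYAB, HSPB8 and BAG3 cause myopathies of the myofibrillar kind, and mutations in HSPB1, HSPB3 and HSPB8 cause motor neuropathies. HSPB2 and HSPB3 are known to be induced as myoblasts differentiate.

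The deleted gene was read by 3 probe sets. For Foxj3, 1435362_at read 77.28 in KO and 495.51 in WT cells, 6.41-fold lower, 1438220_at read 99.40 in KO and 79.74 in WT cells, and 1459055_at did not reach the detection floor of 47.04 intensity units on either array. Which probes lie in the deleted part is not given in the sources used here, so the labels are not settled by these values. The median intensity of all 45037 probe sets was 63.94 on the KO array and 62.03 on the WT array, and 60.8% and 59.2% of them were over the floor. Precision is limited throughout by the number of arrays.

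In the KO library 4 of the 8 genes, Hspb8, Cryab, Hspb2 and Hspb3, were lower by 2-fold or more, and 0 were higher by as much. Hspb7 was just under this threshold, and Hspb1, Hspb6 and Bag3 were close to level. The median log2 ratio of KO over WT across the 8 genes was -1.10, a 2.14-fold lower signal, beside -0.06 over all 14597 measured genes. Each gene is represented by its brightest probe set, and a gene or probe set counts as measured if it was over the detection floor of 47.04 intensity units on at least 1 array. All 8 genes passed this floor on both arrays by that probe set. Over all measured genes 6.72% were at least 2-fold lower and 3.73% at least 2-fold higher. Because the genes were picked with this contrast in view, nothing is read from the difference between these shares.

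**Figure D1:**
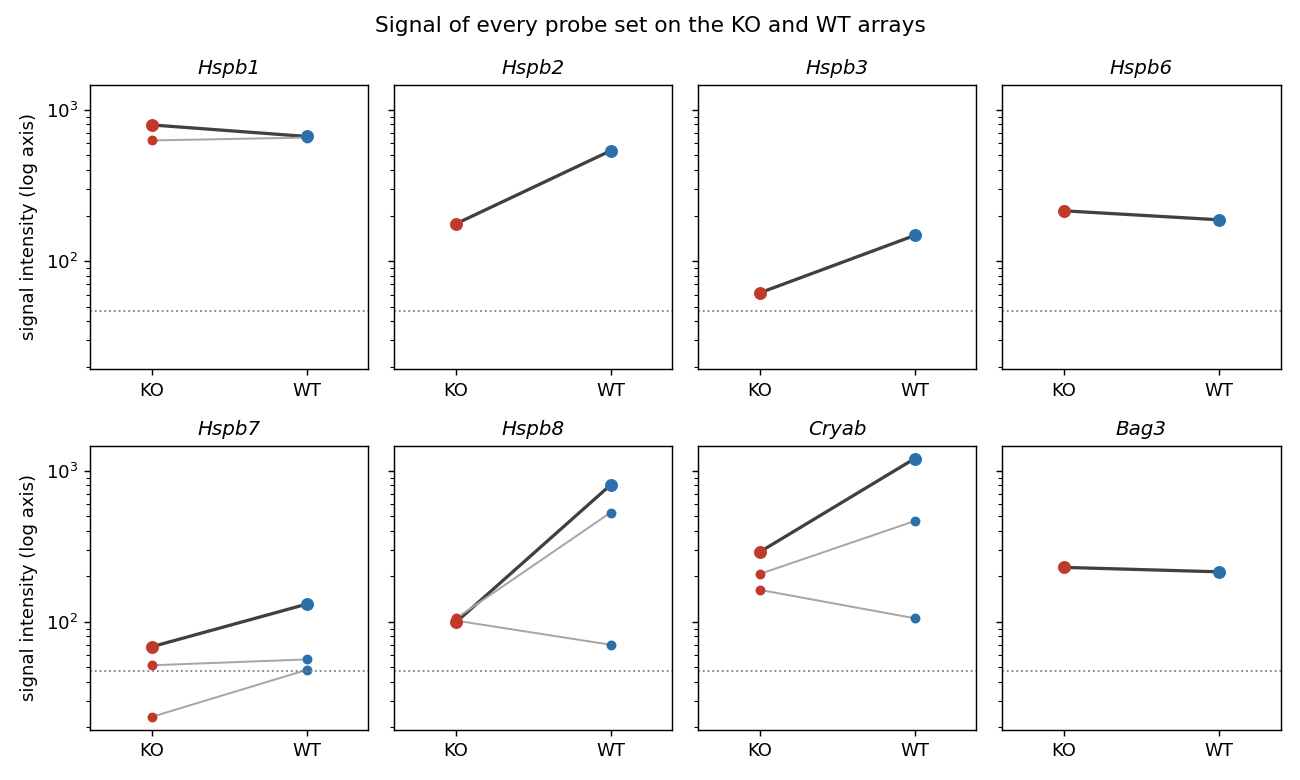
Signal intensity (log axis) of each of the 15 probe sets on the KO array (left, red) and the WT array (right, blue), 1 panel per gene; thick lines and large points are the brightest probe set and the dotted line is the floor of 47.04. Lines of Hspb2 and Hspb3 slope up towards WT, Hspb8 and Cryab each have 2 probe sets that do and 1 that does not, and Hspb1, Hspb6 and Bag3 are nearly flat.

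Sequences near the transcription starts of 6 of the 8 genes were read from RefSeq (GRCm38.p6), as windows of 250 bases before and 50 bases after each start. They are shown for 5 genes because GAANNTTC, a pair of inverted units of the heat shock element, lay near their starts whichever way the gene differed. Capitals mark this motif and, in Hspb3, also the MEF2 motif beside the start. The Hspb8 stretch is chr5:116422845-116422874 on the minus strand and spans the start. The Hspb3 stretch is chr13:113663677-113663926 on the minus strand and ends at the start, as do the Hspb1 stretch chr5:135887669-135887918 and the Hspb6 stretch chr7:30553051-30553300, both on the plus strand. The Bag3 stretch is chr7:128523603-128523632 on the plus strand and lies after the start.
Hspb8: cagaagccaggaGAAGTTTCtaggctcgcg
Hspb3: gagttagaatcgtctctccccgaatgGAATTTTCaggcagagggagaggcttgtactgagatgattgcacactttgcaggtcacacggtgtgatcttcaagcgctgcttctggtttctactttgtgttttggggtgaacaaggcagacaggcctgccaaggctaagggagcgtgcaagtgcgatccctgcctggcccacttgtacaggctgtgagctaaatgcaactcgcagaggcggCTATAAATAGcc
Hspb1: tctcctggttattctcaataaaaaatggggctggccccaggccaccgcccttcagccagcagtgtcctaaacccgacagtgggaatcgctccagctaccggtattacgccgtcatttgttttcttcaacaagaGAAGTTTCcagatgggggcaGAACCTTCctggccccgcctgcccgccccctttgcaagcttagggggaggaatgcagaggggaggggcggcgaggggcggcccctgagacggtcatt
Hspb6: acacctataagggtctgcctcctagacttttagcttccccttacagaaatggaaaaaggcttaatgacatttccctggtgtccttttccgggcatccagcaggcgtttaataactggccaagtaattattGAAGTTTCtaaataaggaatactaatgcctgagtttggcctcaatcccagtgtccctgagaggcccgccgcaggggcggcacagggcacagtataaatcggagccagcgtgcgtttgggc
Bag3: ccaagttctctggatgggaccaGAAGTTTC

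The motif GAANNTTC, which reads the same on both strands, was found in the windows of Hspb8, Hspb3, Hspb1, Hspb6 and Bag3, 5 of the 6 genes with a window, and in 7.86% of all 32851 windows. It began 117 and 97 bases before the start of Hspb1, 120 bases before the second of 2 listed starts of Hspb6 and 224 bases before that of Hspb3. In Hspb8 it began at base 3 and in Bag3 at base 43 after the start. The genes holding it included 2 that were at least 2-fold lower in the KO library and 3 that were not. The reverse arrangement TTCNNGAA was in 0 of the 6 genes and in 8.52% of windows, and the forkhead sequence TGTTTAC, searched on both strands, in 0 of 6 and in 3.65%. The MEF2 motif was in 1 of the 6, Hspb3, where CTATAAATAG began 12 bases before the start and contains the TATAAA found there, and in 3.19% of windows. The sequence TATAAA was also in Hspb6, 29 bases before its second start, and in 13.6% of windows. The E-box CANNTG was in Hspb8, Hspb3, Hspb1 and Hspb7, 4 of 6, and in 72.3%, and the CArG box in 0 of 6 and in 1.63%. A match describes these letters and is not a binding site.

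Hspb8, which encodes the partner of BAG3 in handing damaged filament proteins to autophagy, had the lowest ratio of the 8 genes by brightest probe set. Its brightest probe set, 1456434_x_at, read 99.51 in KO and 804.95 in WT cells, 8.09-fold lower (log2 ratio -3.02). A lower log2 ratio was found for 15 of the 14597 measured genes, which puts Hspb8 at place 16. The suffix of this probe set marks probes that may also match other transcripts. Without that suffix, 1417013_at read 105.35 in KO and 528.09 in WT cells, 5.01-fold lower (log2 ratio -2.33). The remaining set, 1417014_at, read 101.76 in KO and 70.44 in WT cells, opposite in sign (log2 ratio 0.53). Hspb8 was thus lower by 2 probe sets and higher by 1. Averaged over the 3, the log2 ratio was -1.60, still past the threshold and no lower than that of Hspb2.

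Bag3, the co-chaperone that joins HSPB8 to Hsp70, did not share the low ratio of its partner. Its single probe set, 1422452_at, read 228.99 in KO and 214.00 in WT cells, a log2 ratio of 0.10. This gave Bag3 place 8895 from the lowest ratio. The genes known to act with BAG3 and HSPB8 had no common direction. Of 13 measured, 1 was higher and 1 lower by 2-fold or more by brightest probe set, with a median log2 ratio of -0.04. The lower gene was Synpo2, which encodes a Z-disc protein bound by BAG3, at 112.64 in KO and 560.14 in WT cells, 4.97-fold lower. The 2 further sets for Synpo2 gave log2 ratios of -0.20 and 0.28. The higher gene was Sqstm1, which encodes the autophagy receptor p62, at 1496 in KO and 642 in WT cells, 2.33-fold higher. Flnc, which encodes filamin C, a protein cleared by this route, had a log2 ratio of -0.04 by its brightest probe set and -0.92 by the other. Vps18, named after its values were seen, had -0.52 by its brightest probe set and 1.14 by the other. Of the 5 other genes with a BAG domain, all measured, 0 reached 2-fold, and their median was 0.15. Bag1 at -0.81 and Bag2 at 0.44 were farthest from 0.

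Cryab, which encodes alpha-B-crystallin, the chaperone of desmin filaments, was also lower by its 2 brighter probe sets. The brightest, 1434369_a_at, read 290.63 in KO and 1200.70 in WT cells, 4.13-fold lower (log2 ratio -2.05, place 92 from the lowest). Likewise 1416455_a_at read 207.51 in KO and 463.77 in WT cells, 2.23-fold lower (log2 ratio -1.16). The last, 1435837_at, for which the annotation gives no transcript accession, read 162.44 in KO and 105.47 in WT cells, a log2 ratio of 0.62. The 2 probe sets with an accession therefore had the same direction and the third the opposite one. The mean log2 ratio over the 3 was -0.86, a 1.82-fold lower signal that misses the threshold. Cryab and Hspb8 each had 2 probe sets at least 2-fold lower, and at least 2 such probe sets were found in 4.23% of 2579 genes with 3 or more measured.

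Hspb2 lies beside Cryab, and in the mouse the start sites of the pair face away from each other across a short stretch of DNA that holds a muscle enhancer. HSPB2 binds and activates the kinase DMPK and forms a complex with HSPB3 in muscle. Its single probe set, 1429888_a_at, read 176.51 in KO and 536.54 in WT cells, 3.04-fold lower (log2 ratio -1.60, place 206 from the lowest). By their brightest probe sets both genes of the pair were thus at least 2-fold lower, with Cryab minus Hspb2 at -0.44 on the log2 scale. With the mean over its probe sets in place of the brightest, Cryab minus Hspb2 was 0.74, so the order within the pair depended on that choice. The gene table used for names places Hspb2 on chromosome 9 inside the span given for Cryab. Whether the probes of either gene can also bind transcripts of the other was not tested.

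The 6 measured protein-coding genes flanking the pair, 3 on each side, were nearer to level. Before the pair in gene order, Nkapd1 had a log2 ratio of -0.02, Dlat of -0.13 and Dixdc1 of -0.30. After the pair, 1110032A03Rik had -0.24, Alg9 -1.03 and Ppp2r1b -0.33. Since the span given for Hspb2 lies inside that of Cryab, neither side is assigned to 1 gene of the pair. Alg9, which encodes a mannosyltransferase of the endoplasmic reticulum, was thus the only flanking gene of the pair past 2-fold, at 75.84 in KO and 154.72 in WT cells. Among 13609 pairs of measured neighbours in the genome, both genes were at least 2-fold lower in 0.61%. Of the 12 genes flanking the other 6 members, 2 were at least 2-fold lower, Lin37 beside Hspb6 (log2 ratio -1.05) and Inpp5f beside Bag3 (-1.06, with its other probe set above 0), and 0 were higher by as much. Both lay beside members that were themselves level, and over all measured genes 6.72% were at least 2-fold lower.

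**Figure D2:**
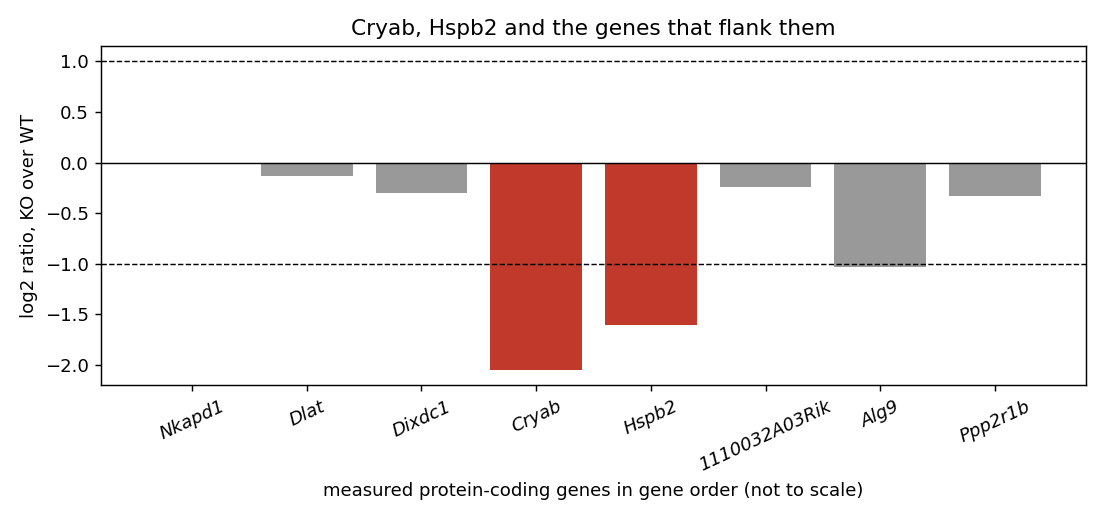
Log2 ratio of KO over WT (vertical axis) by the brightest probe set of each measured protein-coding gene around Cryab and Hspb2, in gene order and not to scale; dashed lines mark 2-fold. Cryab at -2.05 and Hspb2 at -1.60 (red) are below the flanking genes (grey), of which Alg9 at -1.03 is the lowest.

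Hspb3, which encodes the muscle partner of HSPB2, read 61.69 in KO and 147.62 in WT cells by its single probe set, 1449872_at. This was 2.39-fold lower (log2 ratio -1.26, place 481 from the lowest), and the KO reading was not far over the floor of 47.04. With the floor at the 60th percentile of the pooled intensities the log2 ratio was -0.77, and with the floor added as a pseudocount it was -0.84, so in both cases Hspb3 was under 2-fold. Hspb2 and Hspb3, which form the complex, were thus both lower by 1 probe set each.

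Hspb7 is a chaperone of heart and skeletal muscle that binds filamin C. By its brightest probe set it was just outside the threshold that Hspb3 was just inside. Its brightest probe set, 1434927_at, read 68.44 in KO and 130.81 in WT cells, 1.91-fold lower (log2 ratio -0.93). A second, 1421290_at, read 51.54 in KO and 56.36 in WT cells (log2 ratio -0.13). A further set, 1421289_at, read 23.53 in KO cells, under the floor, and 48.02 in WT cells, so that it gave only a bound of at least 1.02-fold lower. All 3 were lower in KO cells, and 1421289_at was the only probe set of the 15 to pass the floor through 1 array alone. With the mean over probe sets the log2 ratio of Hspb7 was -0.36. It was -0.60 with the floor at the 60th percentile and -0.62 with the floor as a pseudocount.

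Hspb1, which encodes Hsp27, a stress-induced chaperone of actin filaments present in most cell types, was level. Its brightest probe set, 1422943_a_at, read 794.42 in KO and 666.88 in WT cells (log2 ratio 0.25), and 1425964_x_at read 627.65 in KO and 655.56 in WT cells (-0.06). The 2 probe sets differed in sign and both were far from 2-fold. Hspb6, which encodes Hsp20, a chaperone of striated and smooth muscle, read 214.80 in KO and 187.43 in WT cells by its single probe set, 1436332_at (log2 ratio 0.20). Hspb1 and Hspb6 took places 10405 and 9876 from the lowest ratio, among the genes slightly above the median.

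**Figure D3:**
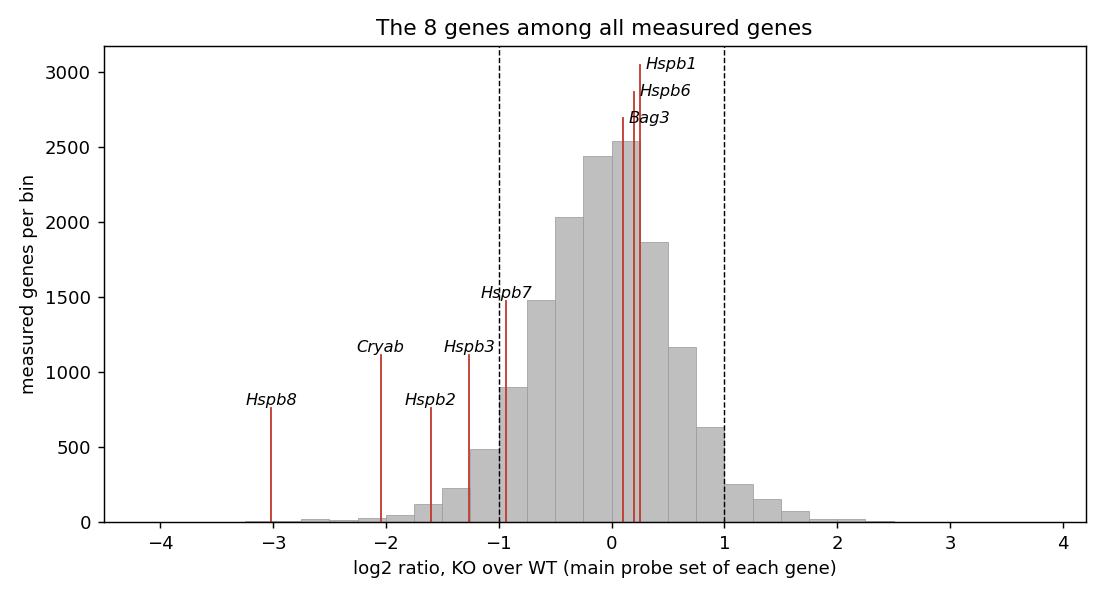
Number of measured genes (vertical axis) per bin of log2 ratio of KO over WT (horizontal axis) by brightest probe set, with the 8 genes marked by red lines whose heights carry no value; dashed lines mark 2-fold, and genes beyond the plotted range are not shown. Hspb8, Cryab, Hspb2 and Hspb3 lie left of the lower line, Hspb7 at -0.93 just right of it, and Bag3, Hspb6 and Hspb1 between 0.10 and 0.25.

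Over the 15 probe sets, 6 were lower by 2-fold or more in the KO library, 0 were higher by as much, and 10 had ratios below 0. The median log2 ratio over all measured genes was itself below 0, at -0.06 by brightest probe set, so nothing is read from the count below 0. Over all 30505 measured probe sets 6.29% were at least 2-fold lower and 5.44% at least 2-fold higher. Among the 7 probe sets that were not the brightest of their gene, 2 were at least 2-fold lower, 1 each of Hspb8 and Cryab. Technical spread could be judged only by how far probe sets for the same gene differed. Over 3047 genes with exactly 2 probe sets that passed the floor on both arrays, the differences between their log2 ratios had an SD of 0.89, or 0.63 per probe set. Spread between cultures or animals is not part of this figure. In units of it, the log2 ratios had sizes of 4.77 for Hspb8, 3.24 for Cryab, 2.54 for Hspb2 and 1.99 for Hspb3. Hspb7 had 1.48, and Hspb1, Hspb6 and Bag3 had 0.40 or less. The genes were chosen with these ratios in view, so the sizes are no evidence of a difference. Probe sets of Hspb8 ran from -3.02 to 0.53 and those of Cryab from -2.05 to 0.62, so the unit may not describe these genes. Of the 3047 genes, 52.8% had both probe sets on the same side of 0.

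Other heat shock genes had no common direction. Of 13 measured heat-inducible chaperones, by brightest probe set 1 was higher by 2-fold or more and 0 were lower by as much. Their median log2 ratio of -0.16 turned to 0.08 with the mean over probe sets. The higher gene was Serpinh1, which encodes the collagen chaperone Hsp47, at 2272 in KO and 817 in WT cells, 2.78-fold higher, with 0.51 at its other probe set. Hsp90aa1 and Hspa4l, named after their values were seen, had 0.14 and -0.91 by brightest probe set. Another probe set of Hsp90aa1 was at 2.75 and another of Hspa4l at -1.41, both past 2-fold. The inducible Hsp70 gene Hspa1b, chosen for mention after its value was seen, had a log2 ratio of 0.05 by its brightest probe set and of -0.80 and -0.30 by the others. Of the heat shock factors 1 of 3 with a probe set was measured, Hsf2, at 63.91 in KO and 177.74 in WT cells, 2.78-fold lower, with -0.06 at its other probe set. With the floor at the 20th percentile the list of measured factors had a median of -0.17. Hsf4 and Hsf5 were under the floor, and Hsf1 was not analysed here. Genes listed with the family but known from other tissues or from cilia differed by little, with Hspb11 at -0.01 and Odf1 at 0.10, while Cryaa, the lens crystallin, and Hspb9 of testis were under the floor on both arrays. By brightest probe set the 6 kinases and binding partners of small heat shock proteins were all under 2-fold. Their median of -0.15 turned to 0.01 with the mean over probe sets. Hspbap1, a binding protein of HSPB1, had -0.75 by its brightest probe set and -0.05, 0.19 and -0.43 by the others. Mapk14, a stress kinase upstream of HSPB1 phosphorylation, had -0.72, while its 3 other probe sets had 0.94, 0.43 and 1.05. Dnajb6, named after its values were seen, had -0.09 by its brightest probe set and -0.62, 1.55 and 0.54 by the others.

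Proteins of filaments and Z-discs, structures at which small heat shock proteins sit, were lower in part. Of 15 measured genes 6 were lower by 2-fold or more and 0 higher by as much, with a median log2 ratio of -0.81. The 4 lowest were Myoz2, a calcineurin-binding Z-disc protein (6.28-fold lower), Actn2, the Z-disc actinin (5.79-fold), Pdlim3, a partner of actinin (4.89-fold), and Ldb3, also known as ZASP (3.91-fold, with log2 ratios of -0.95 and -0.70 at its other probe sets). Des, which encodes desmin and was named for its link to Cryab after its value was seen, had log2 ratios of -0.89 by its brightest probe set and 0.82 by the other, so its probe sets differed in sign. Of 10 measured transcription factors known to act on muscle genes, 3 were lower and 1 was higher by 2-fold or more, with a median of -0.36 that turned to 0.03 without _s_at and _x_at probe sets. Mef2c, a factor of differentiation, read 42.26 in KO cells, under the floor, and 403.70 in WT cells, at least 8.58-fold lower, and its 4 other probe sets had log2 ratios between -2.38 and -0.37. Myog, the gene of the differentiation factor myogenin, was 3.60-fold lower and Mef2d 3.14-fold lower, with 1 of 2 other probe sets of Mef2d above 0. Myod1, the determination factor, was 2.77-fold higher in KO cells.

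**Figure D4:**
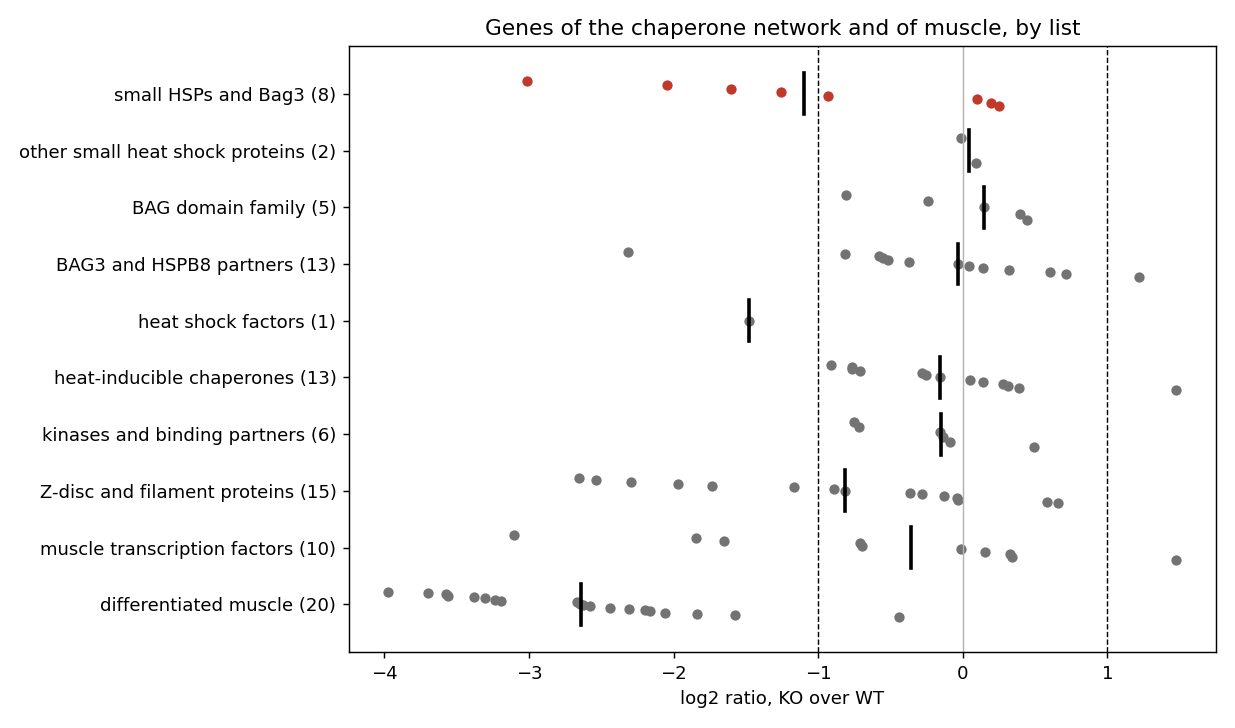
Log2 ratio of KO over WT (horizontal axis) of each measured gene by brightest probe set, in rows by gene list with the number measured; black bars are medians and dashed lines mark 2-fold. The 8 genes (red) split into 5 below 0 and 3 just above 0, and the differentiated muscle genes in the bottom row are all below 0.

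Markers of differentiated muscle moved with the low members. Of 20 measured, 19 were at least 2-fold lower in the KO library and 0 higher, with a median log2 ratio of -2.64. Their summed intensity was 8550 in KO and 45681 in WT cells. In these bulk cultures fewer differentiated cells and less RNA per cell cannot be told apart, and the part of these markers in the ratios of Hspb8, Cryab, Hspb2 and Hspb3 was not tested. For the labelled cell type, all 12 myoblast and satellite cell markers were measured. By brightest probe set 2 were higher and 0 lower by 2-fold or more (median 0.01, under 0 in 3 of 9 alternatives). The summed intensity of the 12 was 12044 in KO and 10269 in WT cells. The higher genes were Myod1 and Sdc4, the latter 4.59-fold higher, with 0.22 at its other probe set. Some level genes had other probe sets past 2-fold: Vcam1 at 2.59 and 2.97, Met at 2.21 and Pax7 at 1.27. Ncam1 had such sets in both directions, with its 6 others between -1.35 and 1.02.

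Markers of other tissues known to express small heat shock genes were also read. Of 10 smooth muscle and pericyte markers 6 were measured, 1 higher and 2 lower by 2-fold or more (median -0.12). Tagln was 2.79-fold higher, Myh11 3.99-fold lower and Smtn 2.10-fold lower. The summed intensity of all 10, with those under the floor, was 7184 in KO and 7382 in WT cells. Most of it came from Acta2, at 5081 in KO and 6049 in WT cells. Cnn1, Pdgfrb, Cspg4 and Lmod1 were under the floor on both arrays. Of the Schwann and neural markers 5 of 6 with a probe set were measured, 0 higher and 1 lower by 2-fold or more (median 0.08). The summed intensity of all 6 was 518 in KO and 1046 in WT cells. The lower one was Erbb3, at least 13.4-fold lower, while its second set gave a log2 ratio of 0.26. Erythroid and lens markers had 5 of 6 measured, 0 past 2-fold and a median of 0.07, with sums over all 6 of 545 in KO and 557 in WT cells. Medians were 0.40 for fibroblast (7 of 10 measured), -0.79 for adipocyte (4 of 6), 0.42 for endothelial (3 of 8) and -0.57 for macrophage and leukocyte markers (5 of 8). By brightest probe set, 1 of these 19 measured genes was at least 2-fold lower, in the adipocyte list, and 1 higher, in the endothelial list. The part of these markers in the ratios of the 8 genes was not tested.

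Over quantile, median and loess scaling the log2 ratios of Hspb8, Cryab, Hspb2 and Hspb3 stayed past 2-fold, and those of Hspb1, Hspb6 and Bag3 stayed between 0 and 0.33 under all 9 alternatives. Hspb8 and Hspb2 were at least 2-fold lower under each of the 9. A lower floor or none could not alter the ratios of the 8 genes, which were all over the floor on both arrays.

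**Figure D5:**
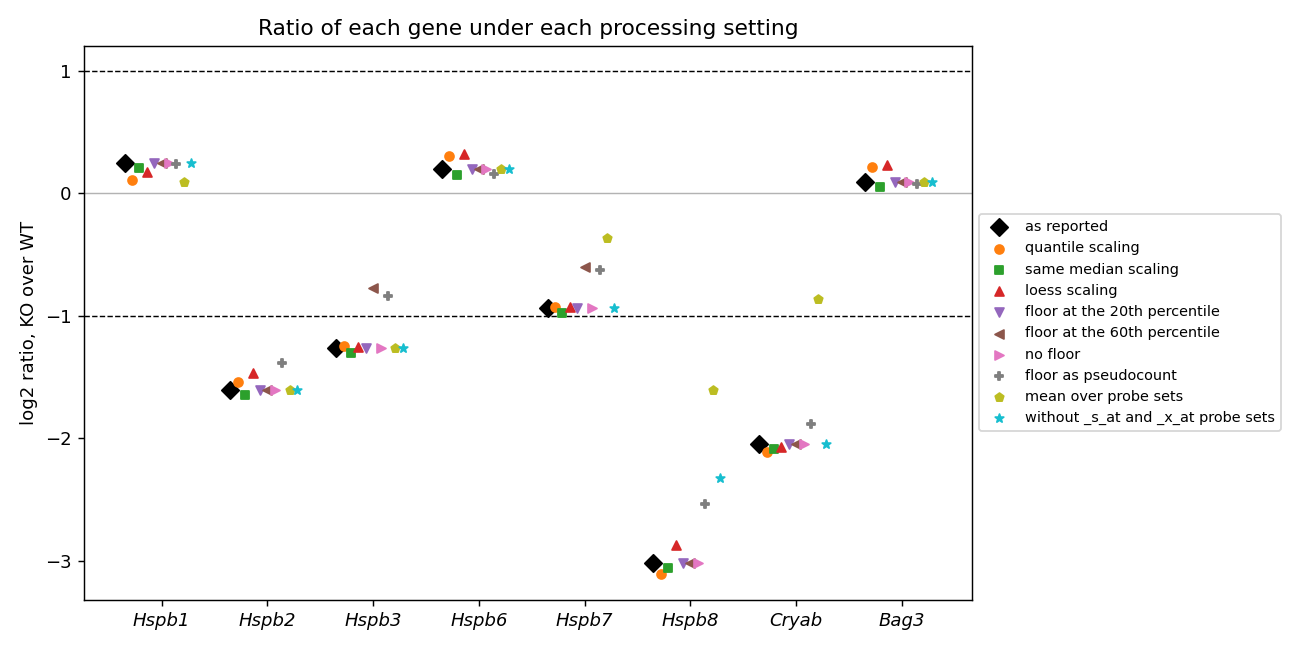
Log2 ratio of KO over WT (vertical axis) of each of the 8 genes under the reported setting (black diamonds) and 9 alternatives (coloured marks); dashed lines mark 2-fold. Every gene keeps its side of 0, Cryab comes to -0.86 with the mean over probe sets, and Hspb3 comes inside the line with the higher floor and with the pseudocount.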

How the data were processed

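Expression was measured on 1 array per culture, of chip type Mouse430_2 per the file headers, from biotin-labelled cRNA of total RNA per the labels' protocols. In the table deposited by the authors, each probe set has a linear intensity for each array. How probes were summarised into probe sets and how arrays were scaled is not given in the sources used here. Means without the top and bottom 2% of intensities were 125.502 on the KO array and 126.096 on the WT array, within 5% of each other, so the intensities were used as deposited. No control probe sets were read and no check of RNA quality was made. All columns of the table were matched to a sample.

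Gene names come from the platform's annotation, possibly an old one, with symbols updated by Entrez identifier from a RefSeq table (GRCm38.p6). Of 45037 probe sets 34945 had 1 symbol, 932 several and 9160 were not listed, and only the first kind named a gene. Values under the 40th percentile of the pooled intensities, 47.04, were set to it before log2. The probe set of highest mean log2 intensity stands for its gene. Calls are folds of at least 2, KO over WT, with no test.

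The 8 genes and the 17 other gene lists were chosen with earlier results of these data known. The rule for named genes was all probe sets of the 8 genes, the flanking genes, Foxj3, and up to 4 members of a list past 2-fold, or the 2 largest where none was. Markers of smooth muscle under the floor were also named. Genes named outside the rule are Flnc, Cryaa, Hspb9, Hsf1, Hsf4, Hsf5 and those marked in the text. The calculation was tested on simulated data. Alternatives were 3 scalings (loess with span 0.3), a floor at the 20th or the 60th percentile, none at all, a pseudocount, the mean over probe sets, leaving out _s_at and _x_at probe sets, and thresholds of 1.5-fold and 3-fold. Python 3.11.15, pandas 2.3.3, numpy 2.4.6 and statsmodels 0.14.6 were used.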

Additional observations from a re-analysis of the deposited data

How the results depend on the processing

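With 1 array per group a change was counted as a move when it exceeded 0.63, the SD per probe set. Of 72 recomputed log2 ratios of the 8 genes, 69 moved by less and 0 changed sign. Many of the 69 could not move, such as those with a lower floor or none and the mean for genes with 1 probe set. A smaller move could still cross 2-fold, as for Hspb3 at -0.77 with the floor at the 60th percentile. The ratios that moved by more were those of Hspb8, at -1.60 with the mean over probe sets and -2.33 without _s_at and _x_at probe sets. Cryab also did, at -0.86 with the mean, which takes Cryab under 2-fold. Cryab minus Hspb2 turned to 0.74 with that mean, which takes in 1416455_a_at and 1435837_at. The number of the 8 genes at least 2-fold lower was between 3 and 5 over 11 alternatives and their median log2 ratio between -1.14 and -0.61, while the number higher was 0 in each.

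Over all genes, 981 were at least 2-fold lower and 544 higher. The lower count was 485 with the pseudocount, 490 with the mean over probe sets, 2811 at 1.5-fold and 221 at 3-fold. The higher count was 873 with the floor at the 20th percentile, 353 at the 60th, 898 with no floor, 313 with the pseudocount, 330 with the mean, 1866 at 1.5-fold and 109 at 3-fold. The share of lower genes among those past 2-fold was 64.3% and between 57.9% and 69.2% over the scalings. Of 265 recomputed log2 values for lists, single probe sets and all genes, 260 moved by less than 0.63, and these too include values that could not move. Of 187 recomputed list counts, 160 stayed within 1.5 times the reported one. Medians of 8 lists changed sign under at least 1 alternative. No paired analysis was possible because each group had 1 array. Replicates could not be left out.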
